A study of Mus musculus with 12 samples.

Results

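The genes described here are 37 genes of the interferon response and of antigen presentation, taken by symbol from the 23183 gene symbols that each of 12 mouse brain libraries lists. They fall into 3 classes that are kept apart throughout: 23 interferon-induced genes, 10 genes of major histocompatibility complex (MHC) class I presentation and 4 genes of MHC class II presentation. All 37 were found in every library. They were chosen by name, with earlier results of these data known, and no threshold on a measured value was used.

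Interferons are secreted proteins that cells release on sensing viral nucleic acid or on activation by immune cells. Type I interferons bind a receptor of IFNAR1 and IFNAR2, which activates a complex holding STAT2 and IRF9 that binds the interferon-stimulated response element (ISRE) of target promoters. Interferon gamma binds IFNGR1 and IFNGR2 and acts mainly at gamma-activated sites (GAS), and its targets include the immunoproteasome, the peptide transporter and both MHC classes. In brain, microglia, border macrophages, endothelium and other cell types can all take part in the response, and class II is normally limited to border macrophages, other antigen-presenting cells and a few microglia.

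The libraries came from male mice of the C57BL/6 strain, with hippocampus and prefrontal cortex (PFC) taken from each of 6 mice. Of these, 3 mice had X-rays to the abdomen, a model of lasting radiation injury of the gut, and 3 control mice were not irradiated. The dose in the names of the irradiated libraries is 13 Gy, and tissue was taken in the chronic phase. The sources used here give neither the exact time after irradiation nor the age of the mice. Only the abdomen was the target, so the brain is described here as a distant organ, and any dose that reached the head is not given. Bulk tissue was sequenced, so fewer cells of a type and less RNA per cell cannot be told apart in any value that follows.

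Values are FPKM, that is, fragments scaled by transcript length and by the library's mapped total, so levels of different genes can be set side by side. The libraries held about 15.6 to 18.9 M fragments (M, mega) by a rough estimate from the smallest steps of the values. Only steps that gave a depth within a preset range were kept, so the estimate was bound to fall in that range. Region markers differed between the regions: 7 of 8 hippocampal subfield markers were higher, and 6 of 7 cortical layer markers lower, in control hippocampus than in control PFC. All 7 striatal markers were also lower in control hippocampus. They summed to 432 to 572 FPKM in control PFC, against 32.7 to 41.2 FPKM in control hippocampi. The part of any striatal tissue in the PFC libraries was not tested. Irradiated hippocampus 2 stood apart, with a summed level of 65.8 FPKM for 10 choroid plexus markers, against 3150 and 4680 FPKM in the other irradiated hippocampi and 3770 to 5890 FPKM in control hippocampi. Several results that rest on this library are given with and without it.

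The promoters of these genes show how many of them carry the letters of an ISRE. The windows are RefSeq's, from 250 bases before to 50 bases after the annotated start, on build GRCm38.p6. The searched ISRE core was GAAANNGAAA on either strand, and 14 of the 20 interferon-induced members with a window held it, against 1131 of all 32851 windows (3.44%). B2m was the only class I member with a match among 8, and none of the 2 class II members with a window had one. The searched GAS letters, TTCNNNGAA, read the same on both strands and were in 6 of 20 interferon-induced members, in Psmb8 alone of 8 class I members and in 0 of 2 class II members, against 8.3% of all windows. Ifi27, Usp18, Iigp1, Tap2, Nlrc5, Cd74 and H2-Ab1 had no window under their symbols and were not searched. A match is a string of letters and no measured binding.

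The stretches below run from 160 to 41 bases before the start, 5′ to 3′ on the gene's strand, and are shown for 5 interferon-induced members whose values the results turn on and for B2m. Capitals mark the ISRE core matches, which overlap one another in Isg15 and in Bst2. The positions are chr19:34640729-34640848 (plus strand) for Ifit1, chr19:34583369-34583488 (plus) for Ifit3, chr4:156200859-156200978 (minus) for Isg15, chr12:26456493-26456612 (minus) for Rsad2, chr8:71537513-71537632 (minus) for Bst2 and chr2:122147527-122147646 (plus) for B2m.
Ifit1: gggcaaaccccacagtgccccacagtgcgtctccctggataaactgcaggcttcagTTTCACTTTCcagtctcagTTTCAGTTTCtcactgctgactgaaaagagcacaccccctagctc
Ifit3: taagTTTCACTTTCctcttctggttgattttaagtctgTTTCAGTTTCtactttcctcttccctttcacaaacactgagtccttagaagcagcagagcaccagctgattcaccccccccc
Isg15: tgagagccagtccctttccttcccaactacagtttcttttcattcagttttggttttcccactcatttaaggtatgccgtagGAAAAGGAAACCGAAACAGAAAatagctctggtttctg
Rsad2: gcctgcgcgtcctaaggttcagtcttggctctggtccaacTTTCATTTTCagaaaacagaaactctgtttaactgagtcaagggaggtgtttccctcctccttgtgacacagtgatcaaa
Bst2: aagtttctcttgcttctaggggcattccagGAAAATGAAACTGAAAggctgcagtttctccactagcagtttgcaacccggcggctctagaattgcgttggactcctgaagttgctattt
B2m: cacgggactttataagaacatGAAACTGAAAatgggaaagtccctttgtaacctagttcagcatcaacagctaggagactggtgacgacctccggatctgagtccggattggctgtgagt
Ifit1 holds a pair of cores that start 104 and 85 bases before the gene's start, and Ifit3 a pair at 156 and 122 bases. Isg15 holds 3 overlapping cores that start 78, 72 and 66 bases before the gene's start. Bst2 holds a pair at 130 and 124 bases, Rsad2 a single core at 120 bases and B2m a single core at 139 bases. Bst2 also held GAS letters at 136 bases before the start, overlapping its first ISRE core.

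B2m, the light chain of class I molecules, was the most abundant, with 76.3 to 112 FPKM over the 12 libraries and a median of 95.6 FPKM. Ifi27 followed with a median of 27.4 FPKM, then the immunoproteasome subunit Psmb10 with 24.8 FPKM and the class I heavy chain H2-D1 with 22.8 FPKM. These neighbours overlap in their ranges and were not ordered by a test. In all, 8 members had a mean of at least 10 FPKM, 23 lay between 1 and 10 FPKM, and 6 were under 1 FPKM: Isg15, Oasl2, Iigp1, Usp18, Rsad2 and Nlrc5. Nlrc5, the transactivator of class I genes, was the lowest at 0.0382 to 0.199 FPKM. The values of the lowest members rest on few fragments. By the same rough depth estimate these were 4 to 18 per library for Isg15 and 11 to 54 for Rsad2.

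Irradiated and control hippocampus were compared first, with limma-trend on log2(FPKM + 1). The 31 members with a mean of at least 1 FPKM were tested, none passed an adjusted p of 0.05, and 0 of 12947 genes passed in all (0.0%). At an unadjusted p under 0.05 there were 1361 genes (10.5% of those tested), among them a single member, Psmb8. Interferon-induced members leaned upward: 14 of the 18 tested had a positive log2 difference, with a median of 0.11, beside 47.0% positive and a median of -0.009 over all genes tested. No test was made of that lean.

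Part of the lean lay in 1 library. Irradiated hippocampus 3 had the highest value of the 6 hippocampal libraries in 17 of the 23 interferon-induced members (73.9%), against 13.8% of all genes tested. Without it, 11 of 16 tested members were positive and the median was 0.06. Without irradiated hippocampus 2, 15 of 18 were positive and the median was 0.14. Control hippocampus 2 had the lowest value in 10 of the 23 (43.5%, against 11.0% of all genes tested).

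Ifit1, which binds viral RNA caps and blocks their translation, had 1.02, 1.61 and 3.45 FPKM in irradiated hippocampi, against 0.791, 0.842 and 1.16 FPKM in control hippocampi. The third irradiated library was far above the rest, and the groups overlapped. The log2 difference was 0.57 ± 0.26 (SE; limma, adjusted p = 0.486) and 0.25 without irradiated hippocampus 3. Ifit3, a partner of Ifit1, had 3.39, 4.06 and 7.55 FPKM in irradiated hippocampi, against 3.99, 2.71 and 3.57 FPKM in control hippocampi. The same library was again the highest and the other 2 lay within or near the control range, with a log2 difference of 0.39 ± 0.24 (adjusted p = 0.548), or 0.10 without that library. Reads of Ifit3 are uncertain, because 51.2% of its 50-base stretches also occur in its neighbour Ifit3b. In PFC of the same irradiated mouse 3, Ifit1 was at 0.912 FPKM, the lowest of the 3 irradiated PFC libraries, and Ifit3 at 3.86 FPKM.

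The induced genes under 1 FPKM were not tested, and 4 of these 5 had all irradiated hippocampi above all controls. Among all genes with a mean of 0.2 to 1 FPKM, 6.64% did so. Isg15, a ubiquitin-like protein joined to other proteins, had 0.915, 0.828 and 1.29 FPKM in irradiated hippocampi, against 0.467, 0.555 and 0.306 FPKM in control hippocampi, a ratio of means of 2.29. Rsad2, also called viperin, an enzyme that makes a chain-terminating nucleotide, had 0.467, 0.461 and 0.551 FPKM in irradiated hippocampi, against 0.212, 0.195 and 0.208 FPKM in control hippocampi, a ratio of 2.4. Each irradiated library stood clear of each control, and irradiated hippocampus 3 was again the highest for both genes.

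Oasl2, an oligoadenylate synthetase-like protein, had 0.968, 1.26 and 1.89 FPKM in irradiated hippocampi, against 0.639, 0.562 and 0.637 FPKM in control hippocampi. The GTPase Iigp1 had 0.451, 0.714 and 1.08 FPKM in irradiated hippocampi, against 0.296, 0.223 and 0.449 FPKM in control hippocampi, so its groups were only narrowly apart. Usp18, which strips Isg15 from proteins and damps the type I receptor, had 0.42, 0.321 and 1.36 FPKM in irradiated hippocampi, against 0.292, 0.192 and 0.619 FPKM in control hippocampi, with overlap and the third irradiated library highest. With the level filter lowered to 0.3 FPKM, limma gave unadjusted p = 0.00425 for Isg15, 0.0052 for Oasl2 and 0.00731 for Rsad2. None passed adjustment over all genes there (adjusted p = 0.453, 0.453 and 0.481).

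**Figure D1:**
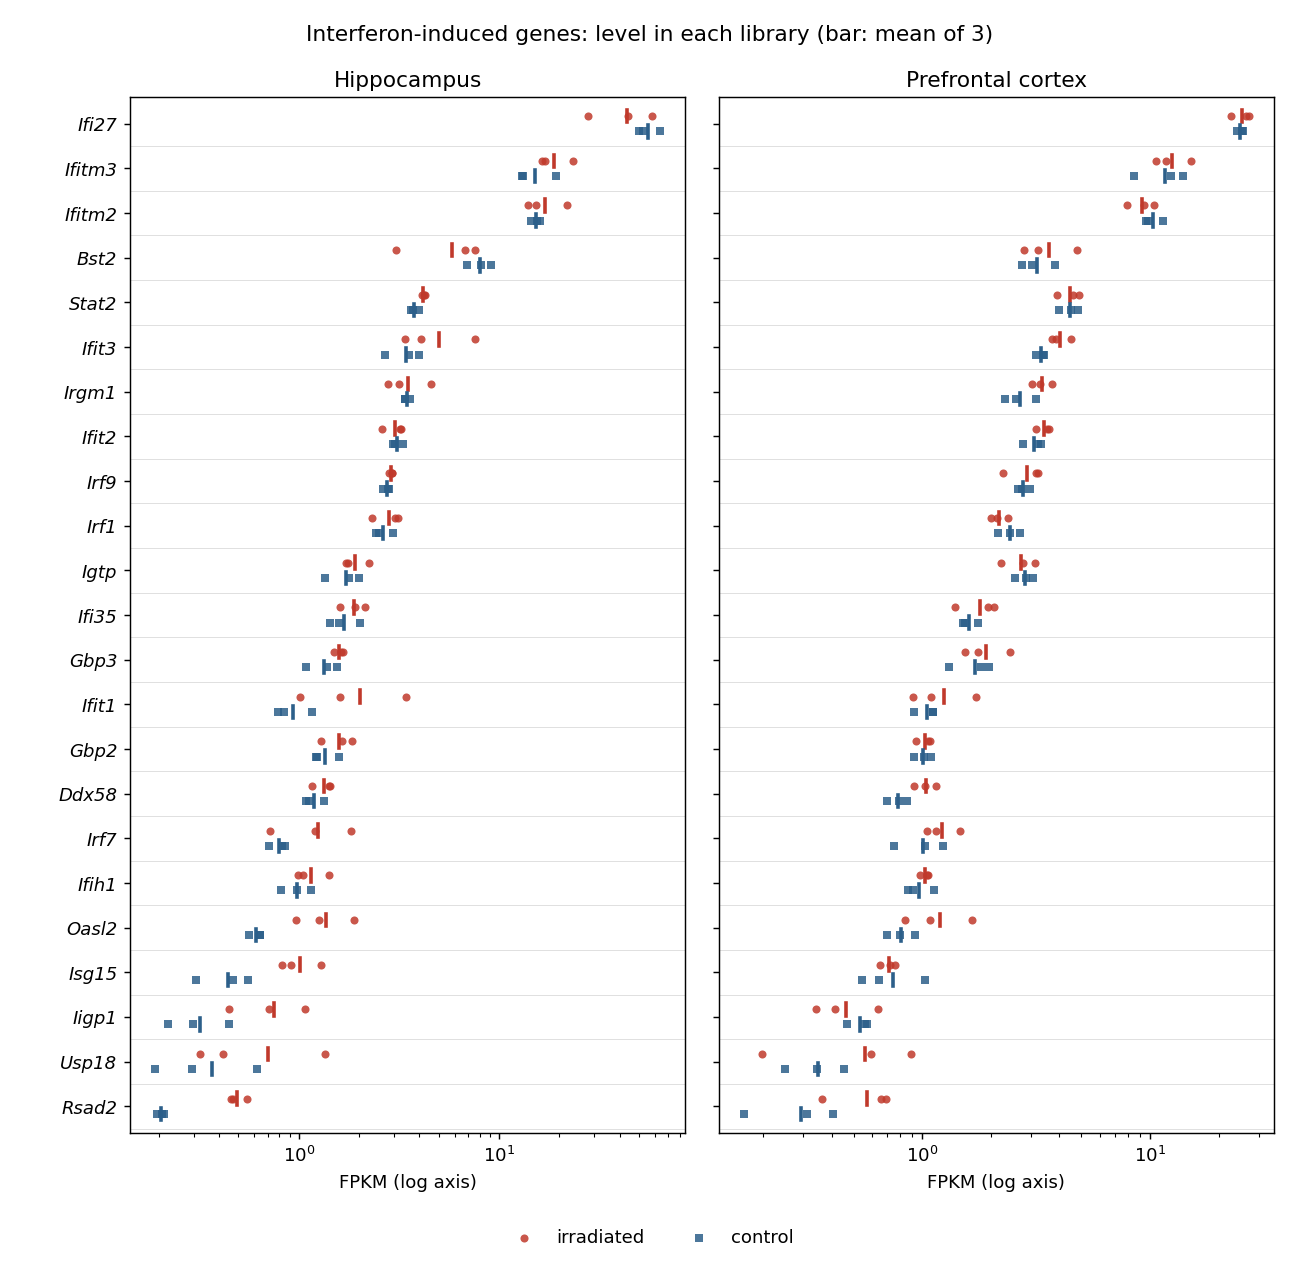
Level of the 23 interferon-induced members in each library (FPKM, log axis; the 2 panels have their own ranges), with irradiated libraries as circles above control libraries as squares and the mean of 3 as a bar. In hippocampus, Isg15, Oasl2, Iigp1 and Rsad2 show irradiated circles to the right of all control squares, and 1 irradiated circle lies far to the right for Ifit1 and Ifit3.

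No transcription factor of the pathway passed the test. Stat2, of the type I signalling complex, had 4.2, 4.25 and 4.12 FPKM in irradiated hippocampi, against 3.72, 3.62 and 4 FPKM in control hippocampi. These groups did not overlap, but the log2 difference of 0.12 ± 0.07 did not pass (adjusted p = 0.55). Its partner Irf9 was also free of overlap, by a narrow margin, at 2.83 to 2.92 FPKM in irradiated hippocampi, against 2.64 to 2.83 FPKM in control hippocampi. Stat2 and Irf9 were thus 2 of the 18 tested members with all irradiated libraries above all controls, beside 7.41% of all genes tested. Irf7, which drives further interferon production, had 1.2, 0.72 and 1.83 FPKM in irradiated hippocampi, against 0.856, 0.707 and 0.824 FPKM in control hippocampi (log2 difference 0.30 ± 0.18, adjusted p = 0.542). It was low in irradiated hippocampus 2, and the difference was 0.48 without that library (adjusted p = 0.75). Without irradiated hippocampus 3, Irf7 was under the level filter and was not tested.

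Ifitm3, a membrane protein that restricts virus entry, had 17, 16.4 and 23.3 FPKM in irradiated hippocampi, against 13, 13.2 and 19.2 FPKM in control hippocampi. The groups overlapped through the third control library, and the log2 difference was 0.31 ± 0.17 (adjusted p = 0.529), or 0.16 without irradiated hippocampus 3. The other tested interferon-induced members had log2 differences from -0.03 to 0.15 in hippocampus: Ifit2, Irf9, Irf1, Ifitm2, Ifi35, the RNA sensors Ddx58 (RIG-I) and Ifih1 (MDA5), and the GTPases Gbp2, Gbp3, Igtp and Irgm1. None passed, with adjusted p from 0.582 to 0.988.

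Bst2 and Ifi27 ran the other way. Bst2, or tetherin, which holds budding viruses to the cell surface, had 6.74, 3.07 and 7.61 FPKM in irradiated hippocampi, against 8.16, 6.9 and 9.1 FPKM in control hippocampi. Ifi27, a small interferon-induced membrane protein, had 44.1, 27.8 and 58.4 FPKM in irradiated hippocampi, against 63.8, 49.8 and 52.3 FPKM in control hippocampi. Both had their lowest hippocampal value in irradiated hippocampus 2, the library with few choroid plexus transcripts, where they came near their PFC levels. Log2 differences were -0.48 ± 0.26 for Bst2 (adjusted p = 0.525) and -0.40 ± 0.23 for Ifi27 (adjusted p = 0.541). Without that library they were -0.14 and -0.11. Without irradiated hippocampus 3 they were -0.68 and -0.64 and still did not pass (adjusted p = 0.274 and 0.222). The part of the choroid plexus content in these values was not tested.

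**Figure D2:**
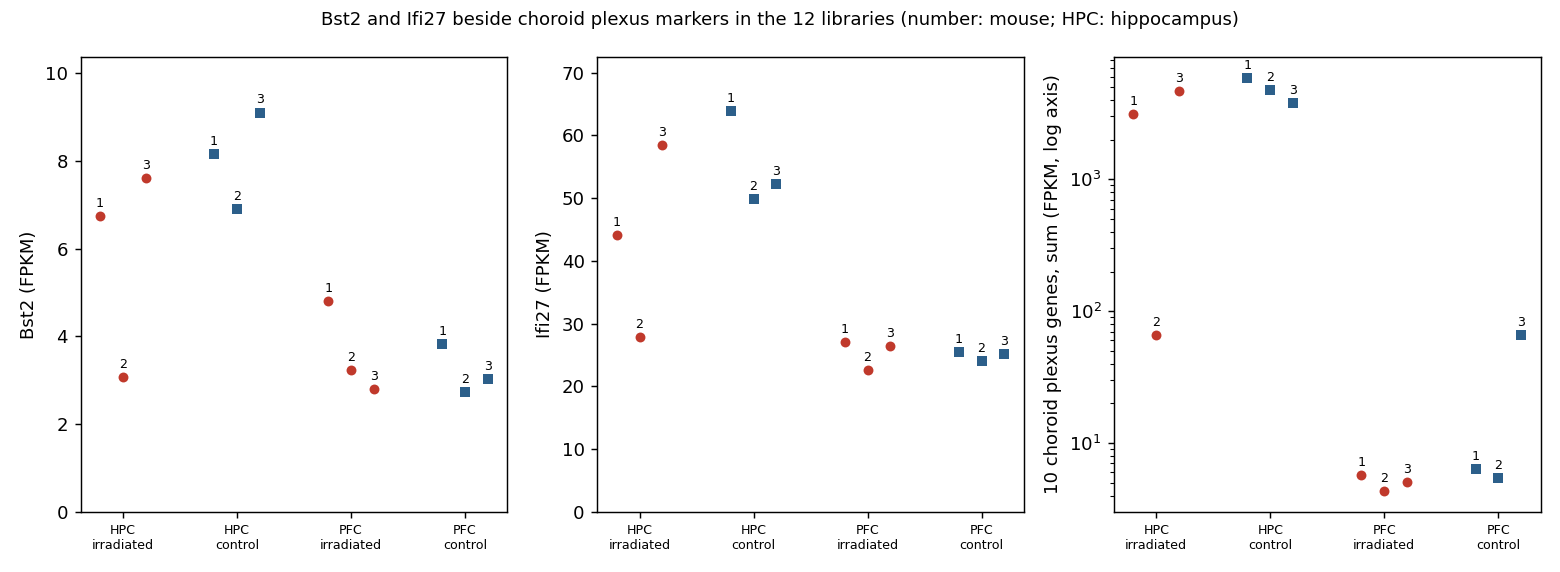
Bst2 (left), Ifi27 (middle) and the summed level of 10 choroid plexus markers (right, log axis) in FPKM, 1 point per library, numbered by mouse within its treatment; circles are irradiated and squares control. Irradiated hippocampus 2 is the lowest hippocampal library in all 3 panels, with 3.07, 27.8 and 65.8 FPKM.

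Markers of vessels and blood cells differed between the same hippocampal groups. The summed level of 12 endothelial markers was 82.3 to 97.4 FPKM in irradiated hippocampi, against 40.5 to 57.5 FPKM in control hippocampi, and none was at 0. In 11 of the 12, all irradiated hippocampi lay above all controls, beside 7.41% of all genes tested. Among these markers, Ly6a and Ly6c1 are themselves known to respond to interferon. For 8 monocyte and neutrophil markers the sums were 4.34, 14.6 and 2.82 FPKM in irradiated hippocampi, against 0.554, 0.252 and 2.21 FPKM in control hippocampi, with 3 of the 8 under 1 FPKM in all 12 libraries. Sums of 12 microglial markers were 183 to 194 FPKM in irradiated hippocampi, against 203 to 204 FPKM in control hippocampi. The largest monocyte and neutrophil sum was in irradiated hippocampus 2, not in irradiated hippocampus 3, where most interferon-induced members were highest. Irradiated hippocampus 3 had the largest sum of 4 red blood cell genes, at 85.3 FPKM, against 49.7 and 54.5 FPKM in the other irradiated hippocampi and 41.8 to 43.9 FPKM in control hippocampi. These 4 genes did not move together: 2 had positive and 2 negative log2 differences, irradiated minus control, from -1.60 to 1.22. The part of any of these cells in the interferon-induced levels was not tested.

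Class I genes were near their control levels in irradiated hippocampus. Of 9 tested members, 4 had positive and 5 negative log2 differences, with a median of -0.03 (0.06 with equal library totals, 0.03 without irradiated hippocampus 2), and none passed. B2m had 94.2, 92.2 and 103 FPKM in irradiated hippocampi, against 95.7, 101 and 110.0 FPKM in control hippocampi, with overlap (log2 difference -0.08 ± 0.07, adjusted p = 0.647; 0.006 with equal library totals). H2-K1, a heavy chain, had 16.3, 16.1 and 17.9 FPKM in irradiated hippocampi, against 17, 15.1 and 18.3 FPKM in control hippocampi, a log2 difference of 0.00 ± 0.08. H2-D1, the other heavy chain among the members, had 19, 25.5 and 23.4 FPKM in irradiated hippocampi, against 21.2, 19.4 and 21.2 FPKM in control hippocampi (log2 difference 0.12 ± 0.10, adjusted p = 0.633). H2-D1 was at 0.04 without irradiated hippocampus 2. Of its 50-base stretches 14.3% occur in other genes, of which the class I gene H2-Q1 shares the most.

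Psmb8, the immunoproteasome subunit also called LMP7, had 2.98, 3.02 and 2.8 FPKM in irradiated hippocampi, against 3.75, 3.56 and 3.27 FPKM in control hippocampi. All irradiated values lay below all controls, as for 8.16% of all genes tested, and the log2 difference was -0.20 ± 0.08 (unadjusted p = 0.0384, adjusted p = 0.475). Its relatives were closer to their control levels: Psmb9 had a log2 difference of 0.07 ± 0.11 and Psmb10 of -0.03 ± 0.09. Tapasin (Tapbp), which loads peptide onto class I, was the other class I member with no overlap, by a narrow margin, at 10.9 to 12.1 FPKM in irradiated hippocampi, against 12.1 to 12.3 FPKM in control hippocampi (log2 difference -0.06 ± 0.06). Its log2 difference was -0.01 without irradiated hippocampus 2. Of Tapbp's exon bases, 29% lie under exons of other genes, mostly on the opposite strand. The transporter subunits had log2 differences of 0.14 ± 0.10 for Tap2 and -0.03 ± 0.16 for Tap1. Without irradiated hippocampus 2, Tap2 was at 0.13 and Tap1 at 0.10.

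**Figure D3:**
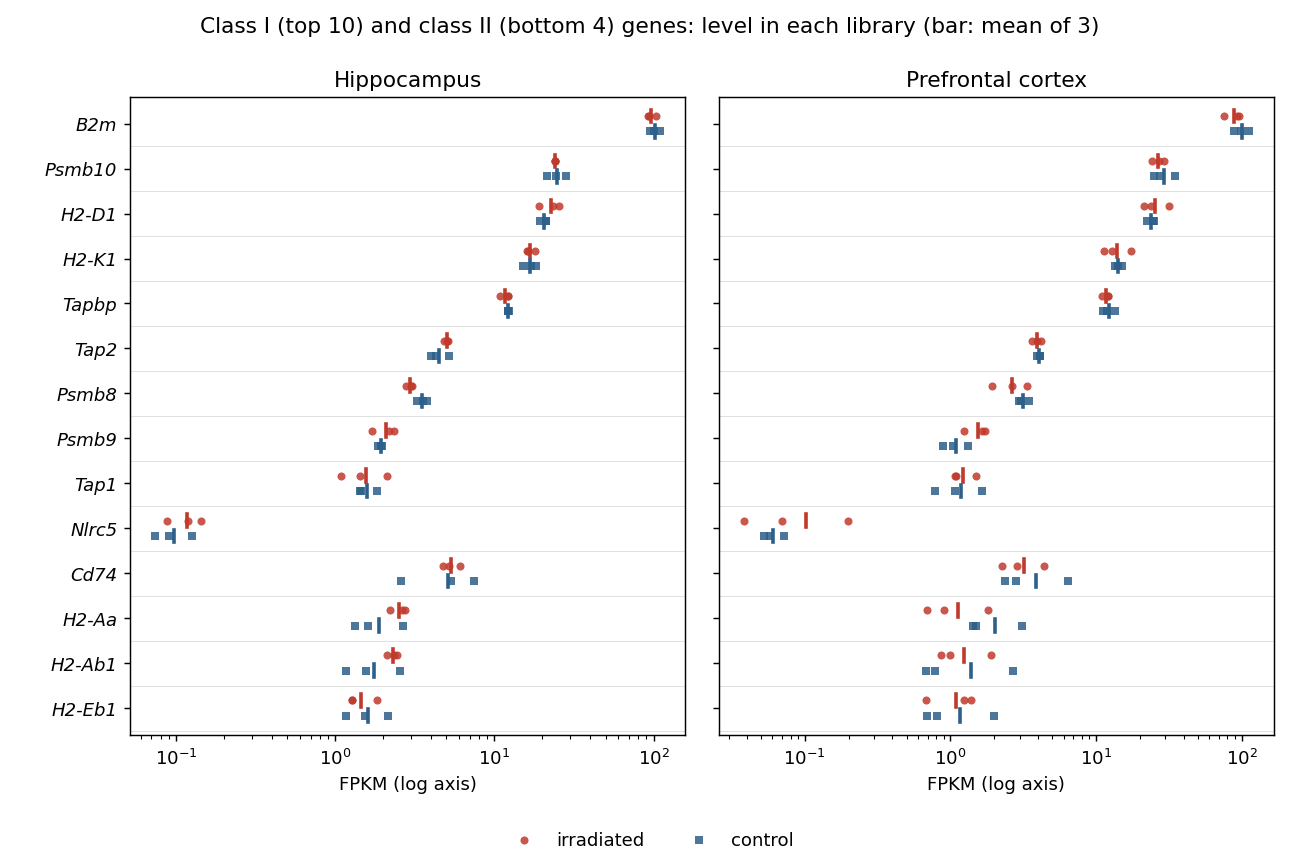
Level of the 10 class I members (top) and 4 class II members (bottom) in each library (FPKM, log axis), with irradiated libraries as circles above control libraries as squares and the mean of 3 as a bar. Irradiated Psmb8 values lie left of all control values in hippocampus, and the class II controls of both regions are widely spread.

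Class II genes varied most among control mice. H2-Aa and H2-Ab1 are the alpha and beta chains of the I-A molecule, Cd74 is the invariant chain, and H2-Eb1 is the beta chain of I-E, whose alpha chain C57BL/6 mice do not make. H2-Aa had 2.22, 2.74 and 2.61 FPKM in irradiated hippocampi, against 1.6, 1.34 and 2.67 FPKM in control hippocampi. H2-Ab1 had 2.1, 2.34 and 2.43 FPKM in irradiated hippocampi, against 1.55, 1.17 and 2.54 FPKM in control hippocampi. Irradiated values were close together in each case, and 2 controls were below them. The third control lay among them for H2-Aa and above them for H2-Ab1. Log2 differences were 0.32 ± 0.17 for H2-Aa (adjusted p = 0.519) and 0.29 ± 0.17 for H2-Ab1 (adjusted p = 0.544). Without control hippocampus 2 they were 0.19 and 0.13.

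Cd74 had 4.72, 5.19 and 6.09 FPKM in irradiated hippocampi, against 5.31, 2.59 and 7.46 FPKM in control hippocampi, so controls lay on both sides of the irradiated group. Its log2 difference of 0.13 ± 0.27 became -0.21 without control hippocampus 2, the library lowest in all 4 class II genes. Without that library the class II median was -0.04, against 0.21 with all libraries. Border macrophage markers, which mark cells rich in class II, summed to 8.77, 7.1 and 8.56 FPKM in irradiated hippocampi, against 3.82, 3.41 and 7.77 FPKM in control hippocampi, with 4 of the 8 under 1 FPKM in all libraries. The same 2 control libraries were thus lowest in that sum and in H2-Aa and H2-Ab1, and its part in the class II values was not tested.

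In PFC, 30 members were tested and none passed, while a single gene of 12729 did so in all (0.00786%). Interferon-induced members again leaned upward, with 14 of 17 positive and a median log2 difference of 0.10, beside 51.2% positive and a median of 0.003 over all genes tested. Much of that lean lay in irradiated PFC 1, which had the highest value in 10 of the 23 (43.5%, against 13.1% of all genes tested). Without it, 7 of 16 were positive and the median was -0.01. Control PFC 1 had the lowest value in 8 of the 23 (34.8%, against 25.8% of all genes tested). Without control PFC 1, 12 of 18 were positive and the median was 0.04. Irradiated PFC 1 also had the largest sum of 8 monocyte and neutrophil markers in PFC, with sums of 16.5, 5.41 and 1.86 FPKM in irradiated PFC, against 0.789, 3.52 and 1.73 FPKM in control PFC. Endothelial markers summed to 95.3 to 113 FPKM in irradiated PFC, against 75.5 to 84.3 FPKM in control PFC. In 6 of the 12, all irradiated PFC libraries lay above all controls, beside 6.25% of all genes tested. The part of these cells in the PFC values was not tested.

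Ifit3 in PFC had 4.5, 3.71 and 3.86 FPKM in irradiated PFC, against 3.17, 3.4 and 3.44 FPKM in control PFC. It was the only tested interferon-induced member in PFC with no overlap (6.25% of all genes tested lay wholly higher), and its log2 difference was 0.21 ± 0.09 (adjusted p = 0.692). The sensor Ddx58, under the level filter in PFC, had 1.03, 1.15 and 0.924 FPKM in irradiated PFC, against 0.699, 0.857 and 0.791 FPKM in control PFC, also without overlap. Of all genes with a mean of 0.2 to 1 FPKM in PFC, 3.83% lay wholly higher. Irgm1, an immunity-related GTPase, had 3.03, 3.73 and 3.29 FPKM in irradiated PFC, against 2.58, 3.17 and 2.3 FPKM in control PFC (log2 difference 0.24 ± 0.11, adjusted p = 0.707). The groups of Irgm1 overlapped in part.

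Oasl2 in PFC had 1.66, 1.08 and 0.844 FPKM in irradiated PFC, against 0.928, 0.703 and 0.799 FPKM in control PFC, with the first irradiated library highest (log2 difference 0.26 ± 0.15, adjusted p = 0.768). Rsad2 had 0.695, 0.363 and 0.662 FPKM in irradiated PFC, against 0.165, 0.311 and 0.408 FPKM in control PFC, with overlap. Isg15 had 0.724, 0.656 and 0.757 FPKM in irradiated PFC, against 0.648, 1.03 and 0.545 FPKM in control PFC, with overlap, and a control held the highest value. With the level filter at 0.3 FPKM, the difference of its irradiation effect, hippocampus minus PFC, was 0.49 ± 0.17 and did not pass. Irf7 had 1.46, 1.05 and 1.15 FPKM in irradiated PFC, against 1.03, 0.754 and 1.23 FPKM in control PFC (log2 difference 0.15 ± 0.13), and Ifit2 had a log2 difference of 0.11 ± 0.10. Ifitm2 had the lowest log2 difference of the class in PFC, -0.14 ± 0.11, and shares 48.5% of its 50-base stretches with other genes.

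Bst2 in PFC had 4.8, 3.22 and 2.79 FPKM in irradiated PFC, against 3.82, 2.73 and 3.03 FPKM in control PFC, with overlap (log2 difference 0.12 ± 0.16; -0.06 without irradiated PFC 1). Stat2 had 4.61, 4.88 and 3.89 FPKM in irradiated PFC, against 4.85, 3.98 and 4.5 FPKM in control PFC, a log2 difference of 0.00 ± 0.10. For Stat2, irradiated mice held both the highest and the lowest value.

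Class I members in PFC had a median log2 difference of -0.05 (0.02 with equal library totals), with 3 positive and 6 negative of 9. Psmb9, the subunit LMP2, had 1.24, 1.72 and 1.65 FPKM in irradiated PFC, against 0.891, 1.04 and 1.33 FPKM in control PFC (log2 difference 0.28 ± 0.13, unadjusted p = 0.0497, adjusted p = 0.69), beside 7.23% of all genes under an unadjusted p of 0.05. Only the first irradiated library lay within the control range. B2m had 92.8, 95.4 and 76.3 FPKM in irradiated PFC, against 89.1, 99.8 and 112 FPKM in control PFC (log2 difference -0.19 ± 0.11, adjusted p = 0.779). Psmb8 had 3.38, 2.65 and 1.93 FPKM in irradiated PFC, against 2.97, 3.04 and 3.49 FPKM in control PFC (log2 difference -0.21 ± 0.14, adjusted p = 0.812). Log2 differences of the other class I members tested ran from -0.11 for Psmb10 to 0.08 for H2-D1, with H2-K1 at -0.05.

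Class II members in PFC all had negative log2 differences, from -0.49 to -0.01, and control PFC 3 had the highest value of all 4. H2-Aa had 0.692, 1.8 and 0.901 FPKM in irradiated PFC, against 1.44, 1.5 and 3.09 FPKM in control PFC (log2 difference -0.49 ± 0.23, adjusted p = 0.71). Cd74 had 2.28, 4.38 and 2.89 FPKM in irradiated PFC, against 2.36, 2.81 and 6.43 FPKM in control PFC (log2 difference -0.16 ± 0.28). Without control PFC 3, the log2 differences were -0.25 for H2-Aa, 0.19 for Cd74 and 0.35 for H2-Ab1, which was at -0.02 with all libraries. That library also held 66.1 FPKM of choroid plexus markers, against 4.32 to 6.37 FPKM in the other PFC libraries, and border macrophage markers summed to 3.9, 4.95 and 5.22 FPKM in irradiated PFC, against 6.3, 5.15 and 6.04 FPKM in control PFC. Among them the mannose receptor Mrc1 had 0.448, 0.601 and 0.584 FPKM in irradiated PFC, against 0.763, 0.685 and 0.847 FPKM in control PFC, lower without overlap. It was the only 1 of the 8 markers to do so, and of the 2 tested in PFC, 1 was higher and 1 lower. In hippocampus Mrc1 went the other way, with 1.08, 1.14 and 0.992 FPKM in irradiated hippocampi, against 0.306, 0.409 and 0.851 FPKM in control hippocampi. The part of these cells in the class II values was not tested.

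**Figure D4:**
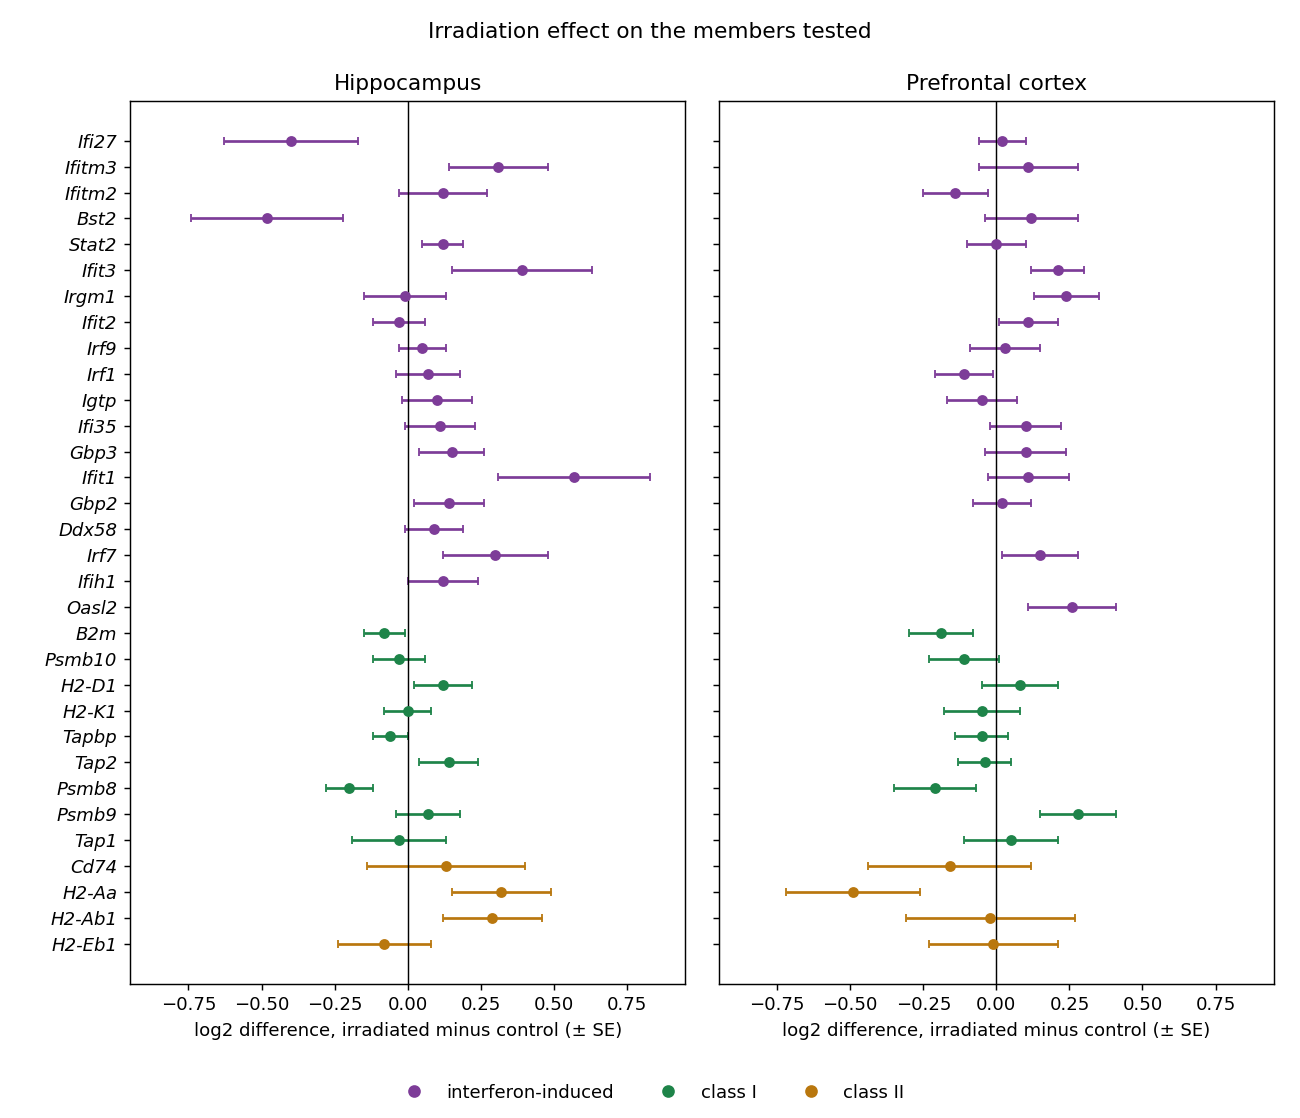
Log2 difference, irradiated minus control, with its SE from limma on log2(FPKM + 1), for the members tested in hippocampus (left) and PFC (right); colours give the class. No member passed an adjusted p of 0.05 in either region; in hippocampus Ifit1 is the highest at 0.57 and Bst2 the lowest at -0.48, and in PFC H2-Aa is the lowest at -0.49.

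Taking the mean of both regions uses each mouse once, and no member passed there, while 1 of 12894 genes did (0.00776%). At an unadjusted p under 0.05, 10.1% of all genes tested and 3 of 31 members were found, which were named after their values were seen. Ifit1 had a log2 difference of 0.34 ± 0.11 (adjusted p = 0.419), Ifit3 of 0.30 ± 0.11 (adjusted p = 0.466) and Psmb8 of -0.20 ± 0.09 (adjusted p = 0.49). Without irradiated mouse 3, Ifit3 was at 0.17, Ifit1 at 0.23 and Psmb8 at -0.12.

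The difference of the irradiation effect, hippocampus minus PFC, was tested directly over all 12 libraries. Each mouse gave 2 of these libraries, and the fit treated them as independent. No member and 0 of 12894 genes passed (0.0%), and 422 genes (3.27%) had an unadjusted p under 0.05. H2-Aa had the smallest p of the members, with a difference of 0.81 ± 0.33 (unadjusted p = 0.0271, adjusted p = 1), its hippocampal value being positive and its PFC value negative. Next came Bst2 at -0.59 ± 0.34, Ifi27 at -0.42 ± 0.27 and Tap2 at 0.18 ± 0.12. Without irradiated hippocampus 2, Bst2 was at -0.26 and Ifi27 at -0.13. Leaving out 1 library at a time, H2-Aa ran from 0.57, without control PFC 3, to 1.03. With the mouse as a block no member passed, and H2-Aa had the smallest adjusted p of the members (limma, 0.608).

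Some members differed between the regions. In control mice, 27 members were tested between hippocampus and PFC, 4 were higher and 1 lower in hippocampus, beside 15.7% of all genes higher and 14.6% lower. Bst2 had 8.16, 6.9 and 9.1 FPKM in control hippocampi, against 3.82, 2.73 and 3.03 FPKM in control PFC (log2 difference 1.11 ± 0.12, limma adjusted p = 0.000158). Ifi27 had 63.8, 49.8 and 52.3 FPKM in control hippocampi, against 25.5, 24 and 25.2 FPKM in control PFC (1.11 ± 0.09, adjusted p = 2.37e-05). All 10 choroid plexus markers were also higher in control hippocampus. They summed to 5890, 4730 and 3770 FPKM in control hippocampi, of which Bst2 was highest in the third and Ifi27 in the first. The part of the choroid plexus content was not tested, nor was that of the striatal markers, which were higher in control PFC.

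Ifitm2 averaged 15.3 ± 0.801 FPKM in control hippocampi and 10.3 ± 1.03 FPKM in control PFC (SD, n = 3 each; log2 difference 0.54 ± 0.08, limma adjusted p = 0.0012). Psmb9 averaged 1.92 ± 0.0566 FPKM in control hippocampi and 1.09 ± 0.223 FPKM in control PFC (0.49 ± 0.11, limma adjusted p = 0.00805). Igtp, a GTPase of the interferon gamma response, was the member lower in hippocampus, at 1.72 ± 0.331 FPKM in control hippocampi and 2.82 ± 0.257 FPKM in control PFC (-0.50 ± 0.12, limma adjusted p = 0.0106). With the mouse as a block, 8 members passed, and the added ones were Ifitm3, H2-K1 and Psmb10 (adjusted p = 0.0203, 0.044 and 0.0484). H2-D1, at 20.6 ± 1.02 FPKM in control hippocampi and 24 ± 1.51 FPKM in control PFC, did not pass (log2 difference -0.21 ± 0.07, limma adjusted p = 0.0553).

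Upstream of these genes, all 10 interferon genes measured, among them Ifnb1, 4 alpha genes, Ifnl2, Ifnl3 and Ifng, were listed at 0 in all 12 libraries. The receptors were present. Ifnar1 had 6.52, 7.18 and 6.88 FPKM in irradiated hippocampi, against 5.75, 6.36 and 6.55 FPKM in control hippocampi (log2 difference 0.12 ± 0.07, adjusted p = 0.547). Ifngr1 had 9.01, 8.13 and 9.73 FPKM in irradiated hippocampi, against 8.33, 7.93 and 7.85 FPKM in control hippocampi (0.14 ± 0.08, adjusted p = 0.531). None of the 13 receptors and signal transducers tested in hippocampus or 14 tested in PFC passed. In PFC the receptor chain Ifnar2 had 10.2, 10 and 9.14 FPKM in irradiated PFC, against 11.9, 12.1 and 10.9 FPKM in control PFC (-0.23 ± 0.08, adjusted p = 0.554). It lay wholly lower, as did 7.44% of all genes tested in PFC.

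Among 17 genes of nucleic acid sensing, 11 were tested in each region and none passed. Adar, an enzyme that edits double-stranded RNA and limits its sensing, had 25.9, 28.3 and 24.8 FPKM in irradiated hippocampi, against 22.6, 24 and 23.4 FPKM in control hippocampi (log2 difference 0.17 ± 0.06, adjusted p = 0.475). Trex1, a DNase that limits DNA sensing, had log2 differences of -0.17 ± 0.08 in hippocampus and 0.30 ± 0.13 in PFC, and the difference between them did not pass (adjusted p = 1). Traf3, an adaptor of sensing pathways, had 9.02, 8.48 and 8.03 FPKM in irradiated PFC, against 7.02, 7.16 and 7.16 FPKM in control PFC (0.23 ± 0.08, adjusted p = 0.554).

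Interferon-induced genes outside the 23 were listed as well, 47 of them in the files. They come from the same libraries and were chosen with earlier results known, so they are no independent check. None of the 21 tested in hippocampus passed, and their median log2 difference was 0.08. In 14 of the 47, all irradiated hippocampi lay above all controls, and in 2, Irf8 and Lap3, all lay below. Among the 21 tested these were 4 higher and 2 lower, beside 7.41% and 8.16% of all genes tested, and among the 13 with a mean of 0.2 to 1 FPKM they were 8 higher, beside 6.64% of all such genes. Those above included Ifit3b (2.52, 2.22 and 3.29 FPKM in irradiated hippocampi, against 1.88, 1.97 and 2.02 FPKM in control hippocampi), Cmpk2, Trim25, Trim30a, Parp14, Rtp4, Samd9l and the guanylate-binding proteins Gbp5, Gbp6, Gbp7 and Gbp9. Their ratios of means ran from 1.16 for Cmpk2 to 2.73 for Tgtp2, apart from Oas2, at 0.0692, 0.178 and 0.135 FPKM in irradiated hippocampi, against 0, 0.0273 and 0 FPKM in control hippocampi. Irradiated hippocampus 3 was the highest library in 19 of the 47 (40.4%). In PFC, none of the 47 lay wholly higher and 2 of the 17 tested lay wholly lower, beside 6.25% and 7.44% of all genes tested, with none of the 17 passing and a median of -0.01. Mx1, an antiviral GTPase whose gene is defective in C57BL/6 mice, was at 0.0203 to 0.179 FPKM over the 6 hippocampal libraries.

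Lap3, an aminopeptidase that trims peptides, had 23.4, 24.7 and 22.7 FPKM in irradiated hippocampi, against 30.3, 27.4 and 26.1 FPKM in control hippocampi (log2 difference -0.23 ± 0.07, adjusted p = 0.475). In PFC it had 20.8, 19.9 and 20.5 FPKM in irradiated PFC, against 22.5, 22.4 and 25 FPKM in control PFC (-0.18 ± 0.07, adjusted p = 0.604). It was lower without overlap in both regions, which no member was.

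Of 22 other class I genes, 16 were tested in each region and none passed. H2-T22, a non-classical class I gene, had a log2 difference of -0.36 ± 0.16 in PFC (adjusted p = 0.67). Of 12 other class II genes, 5 were tested in each region and none passed. Ctss, the protease that cuts the invariant chain, had 54.9, 47.1 and 58.3 FPKM in irradiated hippocampi, against 69.6, 63.3 and 57.4 FPKM in control hippocampi (-0.25 ± 0.10, adjusted p = 0.475). H2-DMb1, which helps load class II with peptide, had 1.2, 1.06 and 0.768 FPKM in irradiated PFC, against 1.43, 1.35 and 2.01 FPKM in control PFC (-0.37 ± 0.14, adjusted p = 0.59). Ciita, the transactivator of class II genes, was at 0.0098 to 0.108 FPKM over the 12 libraries.

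Between the regions of control mice, 17 of the 63 genes tested from these other lists passed (27%), 12 higher and 5 lower in hippocampus, beside 15.7% higher and 14.6% lower over all genes. The largest were Herc6, an enzyme of Isg15 conjugation in mouse, at 1.22 ± 0.182 FPKM in control hippocampi and 3.87 ± 0.284 FPKM in control PFC (SD, n = 3 each; log2 difference -1.13, limma adjusted p = 4.03e-05), and the non-classical class I gene H2-T23, at 6.86 ± 0.941 FPKM in control hippocampi and 14.8 ± 1.56 FPKM in control PFC (-1.01, limma adjusted p = 0.000116). Lgals3bp was higher in hippocampus (log2 difference 0.94) and, like Bst2 and Ifi27, had its lowest hippocampal value in irradiated hippocampus 2, 7.48 FPKM against 12.4 to 16.3 FPKM in the other hippocampal libraries. The interferon gamma receptor chain Ifngr2 was higher in hippocampus by 0.59 and Traf3 by 0.63 on the log2 scale.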

How the data were processed

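RNA of 12 libraries was sequenced, 1 per region and mouse, all with 1 batch label, from directional NEBNext libraries per the labels' protocols. The submitters' processing notes name TopHat and build mm10. No counting tool, annotation or strand setting is given in the sources used here. The deposited tables name no unit and hold 1 value per gene, taken as FPKM (RPKM would look the same). The members and lists were chosen with earlier results of these data known. Of the symbols, 22148 of 23183 (95.54%) matched GENCODE M21, which gave transcript lengths and overlaps for the depth estimate.

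From the FPKM deposited by the authors, limma-trend (limma 3.58.1, R 4.3.3) was run on log2(FPKM + 1) over all genes averaging at least 1 FPKM in the libraries compared, with Benjamini-Hochberg adjustment over all genes and a threshold of 0.05. This scale understates changes of low genes. All tests are two-sided, and the script was tested on simulated data. Groups come from the titles, and the 3 libraries of a group are different mice. There were 5 comparisons: each region, their difference, the mean of both regions per mouse, and the regions of control mice. Described are, in each region, the members of smallest p in each class plus 10 fixed ones, up to 3 genes of smallest p from each other list, and 5 fixed single genes, of which 1 is not reported here. Other members described were chosen after their values were seen.

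Mice are numbered in the titles, so a number within a treatment ties both regions to 1 mouse. The correlation of the deviations from group means between the 2 regions was 0.174, 0.256 and 0.3 in irradiated mice and 0.29, -0.006 and 0.054 in control mice. Between different mice it ran from -0.224 to -0.036 among irradiated and from -0.208 to 0.171 among control mice, the highest above the values of control mice 2 and 3. Between treatments a number names different mice.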

Additional observations from a re-analysis of the deposited data

How the results depend on the processing

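Over 68 results and 984 alternatives, 940 were counted as the same. For single members (600 of 614) this meant the same direction and side of the threshold. For gene counts and class medians (340 of 370) it meant a count within a set fold, or a median moved by less than the SD between replicates. A median counted as the same could thus change sign. No member passed in an irradiation comparison under any alternative. With equal library totals 4 genes passed in hippocampus, 6 members passed between control regions, class I medians were 0.06 in hippocampus, 0.02 in PFC and 0.05 over both regions, and the class II median over both regions was 0.03 (-0.03 without that scaling), with B2m at 0.006 in hippocampus and H2-K1 at 0.024 in PFC. Robust moderation gave 3 genes in hippocampus, and 1 fit over all 12 libraries gave 1 gene in hippocampus and 0 in PFC. With no filter on low values, 2 genes passed in PFC, 1 for the difference and 0 for the mean of both regions. The replicate block gave 2 genes for the mean of both regions, where a number pairs no mice, and 8 members between control regions, where it is the mouse; it changed no other call among the members.

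Leaving out 1 library at a time, genes passing ran from 0 to 1 in hippocampus, 1 to 4 in PFC, 0 to 2 for the difference and 1 to 3 for the mean of both regions. The class I median ran from -0.05 to 0.03 in hippocampus, -0.08 to 0.02 in PFC, -0.06 to 0.04 over both regions and 0.04 to 0.16 between control regions. The interferon-induced median in PFC ran from -0.01 to 0.11, and the class II median of the difference from -0.06 to 0.53. In hippocampus Cd74 ran from -0.211 to 0.407 and H2-K1 from -0.071 to 0.060. In PFC the ranges were -0.061 to 0.247 for Bst2, -0.377 to 0.194 for Cd74, -0.077 to 0.187 for H2-D1, -0.214 to 0.075 for H2-K1, -0.209 to 0.023 for Psmb10 and -0.060 to 0.081 for Stat2. The cause of these changes was not tested, beyond the fewer libraries. Isg15 and Rsad2, with few fragments and 3 mice a group, were under the level filter of 1 FPKM, and neither passed with that filter lowered. The part of depth or group size was not tested.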
